A study of Homo sapiens with 8 samples.

Results

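The nuclear genes for the subunits of the 5 respiratory chain complexes were examined in DLD-1 cells, a human colorectal adenocarcinoma line, after transfection with a miR-143 duplex. Members were chosen by gene symbol: the NDUF prefixes of complex I without the NDUFAF assembly factors, SDHA to SDHD for complex II, UQCR and CYC1 for complex III, COX4 to COX8 for complex IV and ATP5 for complex V. After 2 pseudogenes and 3 non-coding neighbours had been left out, 78 of the 19752 genes measured were members, with 33 in complex I, 3 in complex II, 7 in complex III, 17 in complex IV and 18 in complex V. Another 9 subunit genes, among them SDHB and UQCRFS1, had no probe set with a single gene symbol and were not analysed here.

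Cells of the miR-143 group received 50 nM of the duplex with a lipid reagent. Mock-transfected cells went through the same procedure without a duplex. RNA was taken 24 h later from 4 cultures of each group, described in the study's methods as biological replicates, and each RNA was hybridised to its own Affymetrix array. Both groups are the same line with no further genetic change, arrays with a scrambled duplex were not used here, and a transfected duplex is a model of overexpression. The deposited values are on a log2 scale, so a difference between groups is a log2 fold change, given as miR-143 minus mock. In RNA of whole cultures, fewer cells with a transcript and less of it per cell cannot be told apart.

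The respiratory chain sits in the inner mitochondrial membrane. Complexes I and II pass electrons from NADH and succinate to ubiquinone, complex III passes them on to cytochrome c, and complex IV hands them to oxygen. Complexes I, III and IV pump protons as they do so, and complex V, the ATP synthase, lets the protons flow back to make ATP. Most subunits are encoded in the nucleus and a few in mitochondrial DNA, so the expression of both genomes has to be matched. In colorectal cancer cells the chain works beside a high rate of glycolysis, and glycolysis starts with hexokinases such as HK2, which the study examined as a target of miR-143.

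The agent compared with mock is shown here because the groups differ in it. Mock cells received no duplex, so an effect of the miR-143 sequence and an effect of any duplex cannot be told apart. A microRNA pairs with its targets mainly through the seed, bases 2 to 8 from the 5′ end, which stand in capitals in the mature sequences of RefSeq (build GRCh38.p14). The guide strand lies at chr5:149428978-149428998 and the other arm of the hairpin at chr5:149428944-149428965, both on the plus strand.
hsa-miR-143-3p: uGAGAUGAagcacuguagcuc
hsa-miR-143-5p: gGUGCAGUgcugcaucucuggu
The arms do not share a seed. Transcript sequences were not used here, so matches to these seeds in the members' mRNAs were not looked for.

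Replicate 4 of both groups stood apart. The first principal component over all genes held 66.9% of the variance, with replicate 4 of miR-143 at 25.7 and of mock at 26.7 and the other 6 arrays between −18.8 and −4.25. Array medians were alike, from 7.15 to 7.24. The epithelial markers EPCAM, CDH1 and KRT18 averaged 13.6, 12.8 and 14.7 over the 8 arrays. Of the other epithelial markers, KRT8, KRT19 and KRT20 averaged 11.5, 12.1 and 10.6 and CDX2 8.30, whereas VIL1, CDX1, LGALS4 and CEACAM5 lay near the array median, between 7.12 and 7.73. The 9 measured markers of fibroblasts, muscle, blood and endothelium averaged between 6.81 and 8.14, and the fold changes of 7 of them were below 0, with −0.013 as the median. By p, VIL1 led the epithelial markers (log2 fold change −0.10, its miR-143 arrays all below its mock arrays, exact permutation p = 0.0286, two-sided) and PECAM1 the others (−0.11), and neither was called. HK2 averaged 10.4 ± 0.30 in miR-143-transfected cells against 10.8 ± 0.23 in mock-transfected cells (SD, n = 4 each), and its log2 fold change of −0.36 did not pass in limma (SE 0.158, adjusted p = 1.0) and passed with the replicate number as a block (SE 0.051, limma adjusted p = 0.00787). The groups overlapped for HK2, though miR-143 lay below mock in all 4 pairs of equal replicate number. The fold changes of its 3 probe sets ran from −0.36 to 0.056.

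No subunit of any complex passed the test. In limma, 0 of the 78 members were called at an adjusted p of 0.05 in either direction, and neither was any other gene (0.0% of 19752). At an unadjusted p under 0.05 there were also 0 members, against 1.7% of all genes on the lower side, 0.714% on the higher side and 2.41% on both. The lowest unadjusted p of a member was 0.110, for COX7A2L, and every adjusted p in limma was 1.0. When arrays with the same replicate number were treated as a pair (a block in limma), the count of members called was again 0, while 0.623% of all genes were called lower and 0.167% higher (0.79% in all). In that fit 5 members had an unadjusted p under 0.05, all with negative fold changes, which is 5 of 78 against 6.92% of all genes on the lower side, 2.64% on the higher side and 9.55% on both. They were NDUFA8, NDUFA12, NDUFC1 and NDUFB6 of complex I and COX7A2L of complex IV, and the lowest adjusted p among them was 0.371, for NDUFA8 (limma, replicate block). In 0 members were the arrays of the groups free of overlap, against 1.24% of all genes with miR-143 lower, 0.719% with miR-143 higher and 1.95% in all.

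The intervals give the range of change for the brightest probe set of each subunit, in the values as deposited. They hold for single genes and not for all 78 at once. Without the block, 74 of the 78 limma intervals at the 95% level lay inside a 1.5-fold change in either direction and 10 inside a 1.2-fold change. With the block, all 78 lay inside a 1.5-fold change and 65 inside a 1.2-fold change. The median standard error of a member was 0.129 without the block, against 0.078 over all genes, and 0.061 with it, against 0.054. Among all genes it rose with mean level, to 0.118 at 12 to 13 and 0.137 above 13 without the block. Above a mean level of 8 it was 0.132 for members against 0.101 for all genes, and 0.062 against 0.056 with the block. The members thus varied more from array to array than the median gene. The gap was smaller against genes above a mean level of 8, and within pairs.

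**Figure D1:**
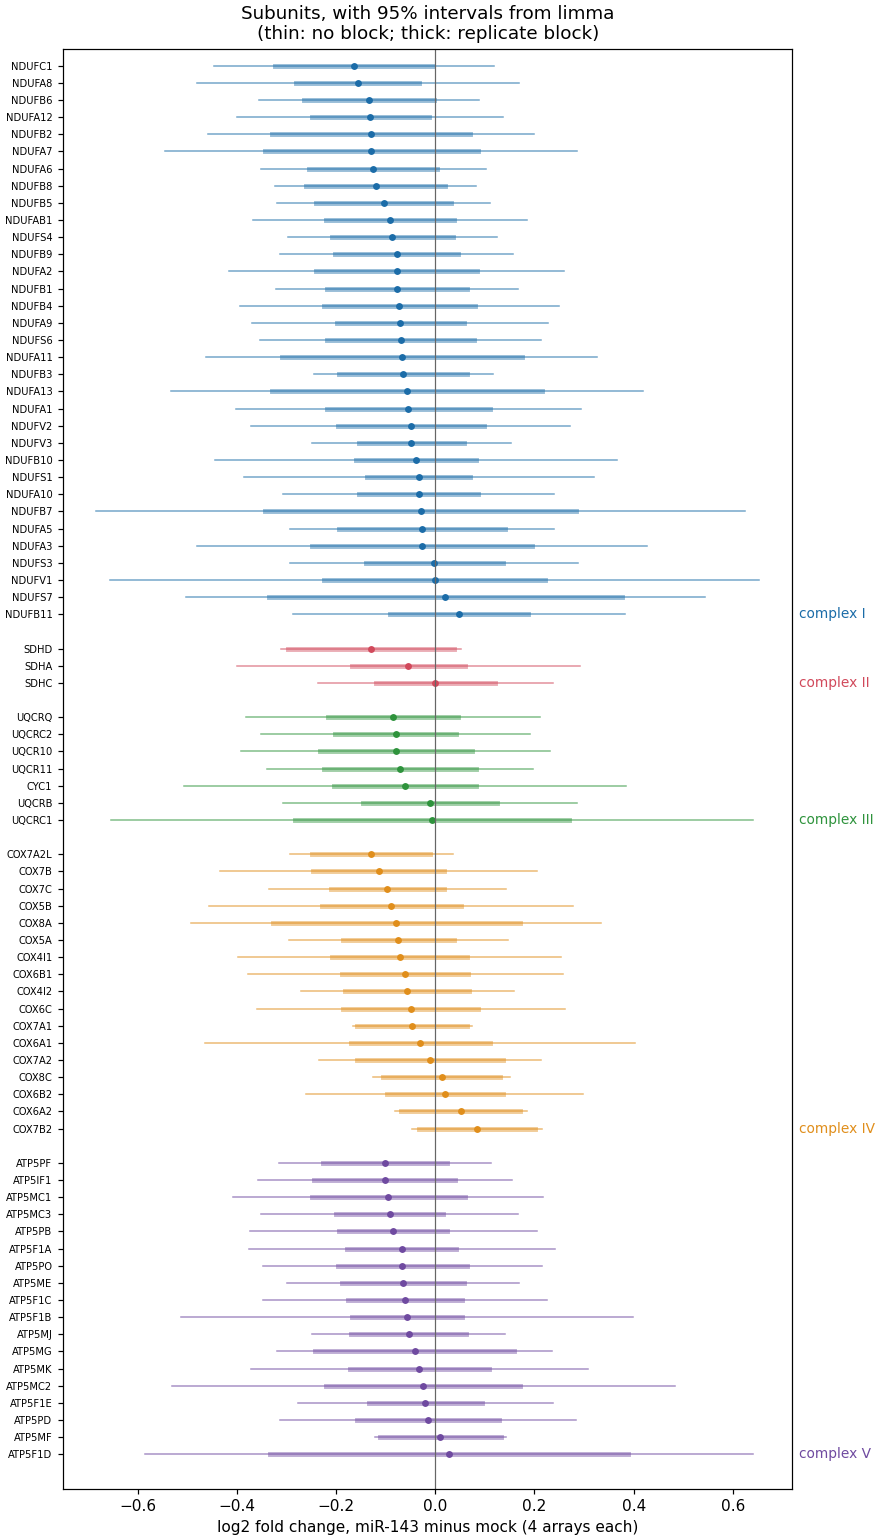
Log2 fold change of each of the 78 subunits (miR-143 minus mock, 4 arrays each; points), grouped by complex, with 95% intervals from limma without a block (thin lines) and with the replicate block (thick lines). Most points lie left of 0, with 69 of 78 negative, which became 32 of 78 after cyclic loess, and every thin line crosses 0.

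The fold changes were small and mostly negative in the values as deposited: 69 of 78 members (88.5%) were below 0, with a median of −0.063 and a range of −0.16 to 0.085. After cyclic loess, a further adjustment between arrays that follows signal level, 32 were below 0 and the median was 0.0082. Over all genes 55.6% were negative as deposited and the median was −0.0091. Signal level moved with this. Among all genes the median fold change went from 0.00098 at mean levels of 6 to 7 down to −0.049 at 10 to 11, −0.084 at 12 to 13 and −0.086 above 13, where 96.2% of genes were negative. Of the members, 71 had a mean level above 8, and these had a median of −0.067 with 67 negative. The other 7 members, with levels of 8 or less, had a median of 0.013 with 2 negative. Whether the members' shift is anything other than that of genes of their level was not tested.

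**Figure D2:**
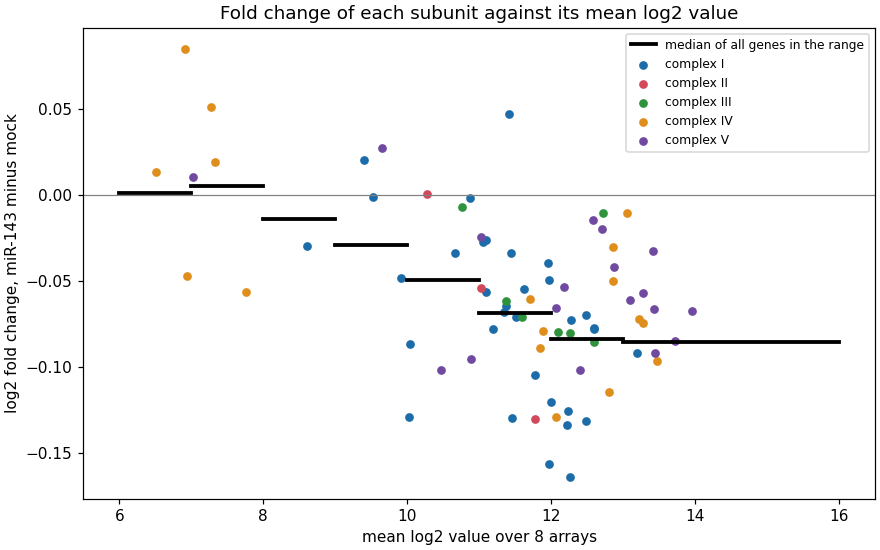
Log2 fold change of each subunit (miR-143 minus mock) against its mean log2 value over the 8 arrays, coloured by complex, with black bars for the median of all genes in each range of level. The black bars go from 0.00098 at 6 to 7 down to −0.086 above 13, and the subunits lie on both sides of them (after cyclic loess the median of the subunits was 0.0082).

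In complex I, 31 of 33 subunits had negative fold changes, with a median of −0.070, but 16 of 33 and a median of 0.0017 after cyclic loess. The largest difference was in NDUFC1, a small accessory subunit of the membrane arm. Its values were 12.26, 12.02, 12.05 and 12.38 on miR-143 replicates 1 to 4 and 12.19, 12.10, 12.46 and 12.62 on mock replicates 1 to 4. The groups overlapped, with the highest miR-143 array above 2 of the mock arrays. The log2 fold change was −0.16 (SE 0.126, 95% interval −0.45 to 0.12, limma adjusted p = 1.0).

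NDUFB6 and NDUFB8 are accessory subunits of the same arm. NDUFB6 had 12.16, 12.13, 12.05 and 12.29 with miR-143 and 12.25, 12.08, 12.28 and 12.56 in mock, a log2 fold change of −0.13. NDUFB8 had 11.94, 11.88, 11.88 and 12.02 against 11.996, 11.81, 12.20 and 12.19, a log2 fold change of −0.12. In both, mock replicate 2 was the lowest of the mock arrays and lay below at least 3 of the miR-143 arrays, so the groups overlapped. NDUFA8, an accessory subunit of the intermembrane space side, was picked after its values were seen, for its low p with the block. Its levels were 11.83, 11.82, 11.70 and 12.21 with miR-143 and 11.98, 11.81, 11.96 and 12.43 in mock, a log2 fold change of −0.16 (SE 0.145 without the block).

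NDUFV1 and NDUFS1 belong to the catalytic core of complex I. The accessory subunits above were named for their low p, so their fold changes cannot be compared in size with those of the core. NDUFV1, which binds NADH and the flavin, had 9.45, 9.22, 9.02 and 10.38 with miR-143 and 9.16, 9.58, 9.26 and 10.08 in mock. Its fold change was −0.0013, but with a standard error of 0.292 the 95% interval ran from −0.66 to 0.65, so a change of 1.5-fold either way lay inside it. NDUFS1, the large iron-sulfur subunit that takes electrons on from the flavin, had 10.60, 10.53, 10.44 and 11.03 against 10.61, 10.56, 10.47 and 11.09. These 4 differences within replicate numbers were all small beside the step of both groups up to replicate 4.

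Complex II, succinate dehydrogenase, is encoded wholly in the nucleus and shared with the tricarboxylic acid cycle. SDHA carries the flavin that oxidises succinate, and its values were 10.89, 10.89, 10.80 and 11.39 with miR-143 and 10.99, 11.04, 10.77 and 11.39 in mock. SDHC, a membrane anchor, had 10.23, 10.14, 10.16 and 10.59 against 10.29, 10.18, 10.20 and 10.43, with a log2 fold change of 0.00042. For both genes the group ranges overlapped widely.

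SDHD, the other membrane anchor, behaved differently across the arrays. It had 11.68, 11.79, 11.81 and 11.53 with miR-143 and 11.85, 11.71, 11.81 and 11.96 in mock. Replicate 4 was the lowest of the miR-143 arrays and the highest of the mock arrays, against the pattern of most subunits. The log2 fold change was −0.13 (SE 0.081, 95% interval −0.31 to 0.051), and neither the exact permutation test (two-sided p = 0.171) nor limma with the block (adjusted p = 0.647) called it. A second, dimmer probe set of SDHD had a fold change of 0.010. Of the 3 members 2 were negative, with a median of −0.054, and after cyclic loess 1 was negative and the median was 0.0080.

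All 7 subunits of complex III had negative fold changes, between −0.085 and −0.0068 with a median of −0.071. After cyclic loess 4 of 7 were negative and the median was −0.0022. Without mock replicate 4 none was negative and the median was 0.036, but that setting keeps the high replicate 4 of miR-143. Without replicate 4 of both groups all 7 were negative, from −0.14 in UQCRC1 to −0.017 in UQCRB. CYC1, the cytochrome c1 that passes electrons to cytochrome c, had 11.31, 11.18, 10.98 and 11.87 with miR-143 and 11.21, 11.26, 11.27 and 11.85 in mock. UQCRC1 and UQCRC2 are the core proteins, which carry no redox group. UQCRC2 had 12.14, 12.20, 12.09 and 12.44 against 12.24, 12.13, 12.17 and 12.65, a log2 fold change of −0.080.

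UQCRC1 had the widest range of the complex: 10.73, 10.40, 10.26 and 11.64 with miR-143 against 10.38, 10.80, 10.65 and 11.24 in mock. Its arrays spanned more than 1 log2 unit within the miR-143 group while its log2 fold change was −0.0068 (SE 0.289). The small subunit UQCRQ, which binds near the ubiquinone site, had 12.48, 12.46, 12.40 and 12.85 against 12.47, 12.44, 12.68 and 12.94, a log2 fold change of −0.085. UQCR11, a small accessory subunit, had 11.54, 11.46, 11.47 and 11.77 against 11.45, 11.40, 11.81 and 11.86, a log2 fold change of −0.071. In UQCRQ and UQCR11 replicates 1 and 2 of the groups were alike, and mock replicate 3 lay above miR-143 replicate 3.

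In complex IV, cytochrome c oxidase, 13 of 17 members had negative fold changes, with a median of −0.057, but 7 of 17 and a median of 0.014 after cyclic loess. The catalytic subunits are made in the mitochondrion, so the nuclear members are the supporting ones. Several are isoforms of other tissues: COX4I2, COX6A2, COX6B2, COX7A1, COX7B2 and COX8C, known from lung, heart and skeletal muscle or testis, had mean levels of 6.51 to 7.77, near the array median. The 11 members above a level of 8 were all negative in the deposited values, with a median of −0.074.

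The member with the lowest p of all was COX7A2L, a relative of the COX7A subunits that joins complexes III and IV into supercomplexes. Its values were 11.97, 12.07, 11.88 and 12.09 with miR-143 and 12.09, 12.06, 12.09 and 12.29 in mock. The groups overlapped at miR-143 replicates 2 and 4, which lay within the range of the mock arrays. The log2 fold change was −0.13 (SE 0.073, 95% interval −0.29 to 0.035), with p = 0.171 in the exact permutation test (two-sided), whose smallest possible p with 4 arrays against 4 is 0.0286. With the block, limma gave an adjusted p of 0.473.

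COX4I1, through which ATP slows the enzyme, had 13.08, 13.14, 13.02 and 13.50 with miR-143 against 13.18, 12.99, 13.22 and 13.64 in mock. COX5A, which sits on the matrix side, had 13.16, 13.17, 13.16 and 13.45 against 13.32, 13.15, 13.22 and 13.54. Both had overlapping groups with replicate 4 the highest array of each, and their log2 fold changes were −0.072 and −0.074. COX5B, the zinc-binding subunit, had 11.71, 11.66, 11.68 and 12.16 against 11.66, 11.62, 11.99 and 12.29. COX6A1 had 12.70, 12.69, 12.60 and 13.39 against 12.66, 12.66, 12.88 and 13.30, and COX7C had 13.33, 13.32, 13.36 and 13.64 against 13.36, 13.36, 13.57 and 13.75. In these 3 genes replicates 1 and 2 were nearly equal between groups, and replicate 4 was the highest array of each group. At the other end of the complex stood COX7B2, the testis relative of COX7B, with 6.93, 6.96, 7.01 and 6.93 against 6.98, 6.88, 6.85 and 6.78. Its log2 fold change of 0.085 was the highest of any member, at a level below the array median, and its p of 0.114 was the lowest exact permutation p (two-sided) among the members.

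In complex V 16 of 18 members had negative fold changes, with a median of −0.059, but 4 of 18 and a median of 0.025 after cyclic loess. The α and β subunits form the catalytic head. ATP5F1A (α) had 13.85, 13.85, 13.76 and 14.24 with miR-143 and 13.90, 13.82, 13.88 and 14.36 in mock. ATP5F1B (β) had 13.16, 13.08, 12.96 and 13.76 against 13.12, 13.22, 13.03 and 13.81. For both the groups overlapped, and their log2 fold changes were −0.067 and −0.057.

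ATP5F1D, the δ subunit of the rotating stalk, varied most in the complex, with 9.77, 9.30, 9.20 and 10.36 against 9.11, 9.46, 9.93 and 10.03 and a log2 fold change of 0.027 (SE 0.273). The proton-carrying c ring is encoded by several genes that give the same mature protein. Of these ATP5MC1 had 10.77, 10.75, 10.72 and 11.11 against 10.77, 10.64, 11.07 and 11.25, and ATP5MC3 had 13.33, 13.33, 13.28 and 13.65 against 13.40, 13.35, 13.41 and 13.79. Their log2 fold changes were close, at −0.095 and −0.092.

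ATP5PF, coupling factor 6 of the outer stalk, had 12.27, 12.32, 12.33 and 12.48 against 12.39, 12.26, 12.46 and 12.71, the lowest log2 fold change of the complex at −0.10. ATP5IF1, the inhibitor that stops the enzyme from running backwards, had 10.42, 10.32, 10.31 and 10.65 against 10.39, 10.30, 10.65 and 10.76. ATP5MF was measured here by a probe set near the array median, with means of 7.03 and 7.02.

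**Figure D3:**
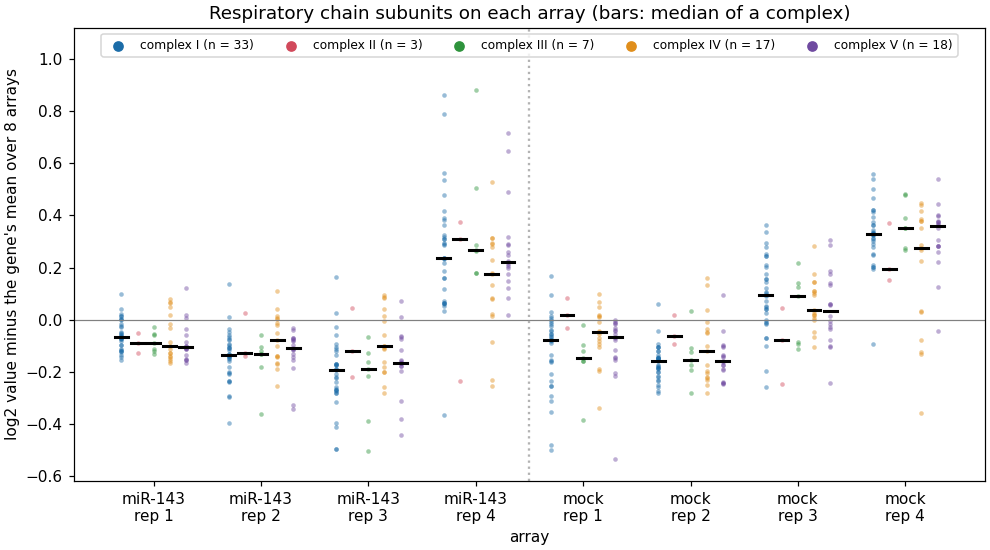
Deviation of each subunit on each array from its own mean over the 8 arrays (log2; dots, coloured by complex), with a black bar for the median of a complex. Replicate 4 of both groups lies highest in every complex, and the median over all members went from −0.17 in miR-143 replicate 3 to 0.33 in mock replicate 4.

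Most of the spread of the subunits lay between replicate numbers rather than between groups. The median deviation of the 78 members from their own means was −0.083, −0.12, −0.17 and 0.24 on miR-143 replicates 1 to 4 and −0.069, −0.16, 0.057 and 0.33 on mock replicates 1 to 4, while that of all genes stayed between −0.030 and 0.038. Replicate 4 was above the mean of the other 3 arrays in both groups for 70 of the 78 members. The median of that step was 0.369 with miR-143 and 0.381 in mock, against 0.033 and 0.048 over all genes. Over all genes with a level above 8 it was 0.252 and 0.257. At levels of 11 to 12 it was 0.273 and 0.326 over all genes, and at 12 to 13 it was 0.313 and 0.394. Above 13 it was 0.406 and 0.491. A step of this size was thus not particular to the members. Mock replicate 4 was the highest of the 8 arrays for 50 members and miR-143 replicate 4 for 18. Which property of the replicate 4 cultures or arrays goes with this step was not tested.

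The step was present in each complex. With miR-143 its median was 0.421 in complex I, 0.414 in complex II, 0.408 in complex III, 0.284 in complex IV and 0.351 in complex V. In mock it was 0.374, 0.205, 0.416, 0.319 and 0.416. Single subunits differed far more. It reached 1.18 with miR-143 and 0.63 in mock for UQCRC1, 1.15 and 0.74 for NDUFV1, and 1.07 and 0.70 for NDUFB7, an accessory subunit of complex I. It was below 0 in both groups for NDUFA5, an accessory subunit of the matrix arm, with −0.47 and −0.14, and for COX6B2, COX4I2 and COX7B2, which had mean levels near the array median.

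**Figure D4:**
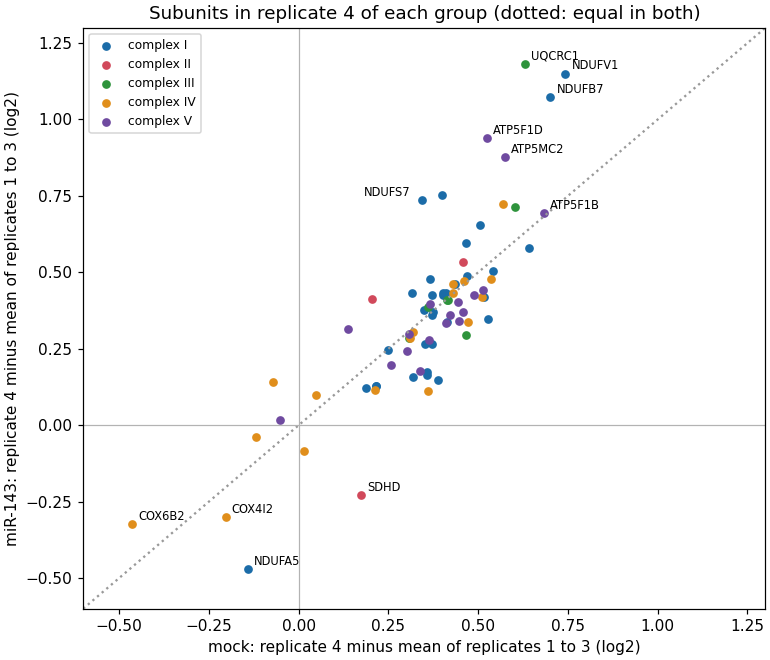
Replicate 4 minus the mean of replicates 1 to 3 for each subunit, in the miR-143 group (vertical axis, log2) against the mock group (horizontal axis, log2), coloured by complex; the dotted line marks equal steps. Most subunits lie in the upper right, with UQCRC1 at 1.18 and 0.63, and SDHD is below 0 with miR-143 and above 0 in mock.

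The differences within replicate numbers were uneven. The median over the members of miR-143 minus mock was −0.0074 for replicate 1, 0.037 for replicate 2, −0.21 for replicate 3 and −0.087 for replicate 4, with 42, 26, 71 and 54 of 78 members negative. Over all genes the medians lay between −0.027 and −0.0038. For replicates 1 to 4 they were −0.031, −0.0016, −0.076 and −0.041 over all genes with a level above 8. Over all genes at levels of 12 to 13 they were −0.12, 0.040, −0.11 and −0.13. Among the members, replicate 3 held the largest part of the negative shift. There its median was −0.24 in complex I, −0.30 in complex III, −0.20 in complex IV and −0.13 in complex V, but 0.00011 in the 3 genes of complex II. Without mock replicate 4, 50 members changed sign and the median of the members turned to 0.027, and without replicate 4 of both groups it was −0.064 with 72 of 78 negative.

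**Figure D5:**
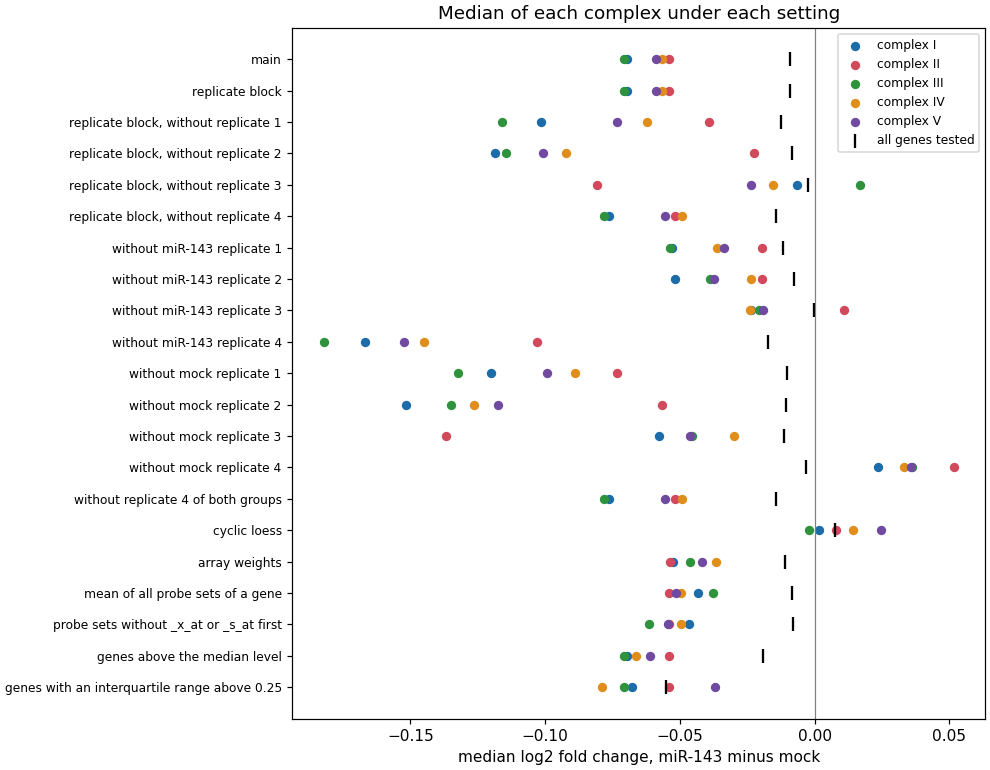
Median log2 fold change (miR-143 minus mock) of each complex (coloured points) and of all genes tested (black ticks) under each way of processing the values. The medians are mostly negative, between −0.071 and −0.054 for the values as deposited. They turn positive in all complexes without mock replicate 4, a setting that keeps replicate 4 of miR-143, and in all but complex III after cyclic loess.

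A gene can have several probe sets on the array, and these did not always point the same way. The 78 members had 152 probe sets, of which 118 had negative fold changes, with a median of −0.047, and 1, a dimmer probe set of COX5A, had an unadjusted limma p under 0.05. Of the 44 members with more than 1 probe set, 21 had all of them negative, 0 had all positive and 23 had both signs. For 35 members the brightest probe set, used above, has a name ending in _s_at and for 7 in _x_at, types that can bind related transcripts, and expressed pseudogenes and paralogs of subunit genes are of that kind.

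The promoters of the members were examined for letters of the sites of the factors that are known to drive respiratory genes, to see what the members share beyond their names. The stretch from 250 bases before to 50 bases after the start was held in RefSeq's table (GRCh38.p14) for 66 of the 78 members. GCGCATGC, the core of the NRF1 site, was found on either strand in 13 of them (19.7%), against 3.68% of all 27305 genes with a promoter in the table. CCGGAAG, a site of ETS factors such as GABPA, was in 19 members (28.8%) against 12.2%, and CCATNTTG, the core of the YY1 site, in 13 (19.7%) against 6.33%. The 27305 genes were not limited to those measured on the arrays or to genes of the members' signal level. On opposite strands the NRF1 core can overlap itself, and a promoter was counted once. Examples from complexes I, II, IV and V, in which the NRF1 core occurred, are shown 5′ to 3′ on the gene's strand with the core, or its reverse complement, in capitals. The windows are shown because the core was the motif whose share exceeded that of all promoters by the largest ratio.
NDUFA6: ctgtagatgaGCATGCGCagcacccacc
SDHD: agctgtgtttGCGCATGCgcgacgggtg
COX5B: gcagagctggGCATGCGCaatttccgcc
COX6A1: gagggcacacGCATGCGCacgaaggaaa
ATP5PF: cactcaaagaGCGCATGCgtacagagca
They lie at chr22:42090921-42090948 (minus strand), chr11:112086753-112086780 (plus), chr2:97645916-97645943 (plus), chr12:120437885-120437912 (plus) and chr21:25735157-25735184 (minus), and 158, 102, 128, 210 and 112 bases separate the core from the start of NDUFA6, SDHD, COX5B, COX6A1 and ATP5PF. The 13 members with the core had a median log2 fold change of −0.070 and the 53 without it −0.066. The step up to replicate 4 was also alike, at 0.370 with miR-143 and 0.373 in mock for members with the core and 0.375 and 0.400 for those without.

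Genes that serve the complexes were read from lists in the same fit. Without the block 0 of them were called. Of the assembly factors, 16 of 19 for complex I, 3 of 4 for complex II, 8 of 9 for complex III, 16 of 22 for complex IV and 2 of 4 for complex V had negative fold changes, with medians of −0.077, −0.062, −0.099, −0.069 and 0.0054, which were −0.031, −0.026, −0.095, −0.018 and 0.046 after cyclic loess. Without mock replicate 4 the medians were −0.017, −0.055, −0.086, 0.0019 and 0.077. That setting keeps replicate 4 of miR-143, so it is not balanced, here and for the lists below. TTC19, which keeps complex III free of leftover fragments of its iron-sulfur protein, was the sole assembly factor called with the block. It had 10.77, 10.80, 10.61 and 11.30 with miR-143 and 11.10, 11.26, 10.93 and 11.53 in mock. The groups overlapped, with replicate 4 the highest array of each, and miR-143 lay below mock in all 4 pairs. Its log2 fold change was −0.33 (SE 0.053 with the block, limma adjusted p = 0.0150; SE 0.161 and adjusted p = 1.0 without), the exact permutation p without pairs was 0.171 (two-sided), and the call with the block was lost when replicate 1, 2 or 3 was left out (limma adjusted p = 0.0811, 0.0869 and 0.0861) and held without replicate 4 (0.0411). COA1, SDHAF4, COX18 and ATPAF1, the assembly factors of lowest p for complexes I, II, IV and V, had log2 fold changes of −0.16, −0.13, −0.17 and −0.089 and were not called in either fit.

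The subunits encoded in mitochondrial DNA were measured for 7 of 13 genes, and 4 of these were negative, with a median of −0.043 that turned to 0.063 after cyclic loess and 0.13 without mock replicate 4. COX3, a subunit of the catalytic core of complex IV, had a positive fold change. Of the 17 nuclear members of its complex 13 were negative as deposited and 7 after cyclic loess. The other core subunits, COX1 and COX2, had log2 fold changes of −0.069 and −0.043. Their mean levels were 14.7 and 14.8, against 9.50 for COX3. COX3 had 9.48, 9.63, 9.70 and 9.59 with miR-143 and 9.51, 9.35, 9.45 and 9.32 in mock, with miR-143 replicate 1 inside the range of the mock arrays. Its log2 fold change of 0.19 (SE 0.069) did not pass in limma (adjusted p = 1.0, and 0.272 with the block), and its exact permutation p was 0.0571 (two-sided). The arrays measured it with a single probe set of a type that can bind related sequences, and copies of mitochondrial genes lie in the nuclear genome.

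Mitochondrial ribosomal proteins, which serve the translation of those subunits, had 65 of 75 negative fold changes with a median of −0.081, which was −0.015 after cyclic loess and 0.0078 without mock replicate 4. MRPL57 was called lower with the block (log2 fold change −0.34, limma adjusted p = 0.0193), though with a replicate number left out its adjusted p ranged from 0.0427 to 0.127. Electron carriers and ubiquinone synthesis had 13 of 17 negative with a median of −0.046, which was −0.0038 after cyclic loess and 0.019 without mock replicate 4. In this list GPD2, which feeds electrons from glycerol 3-phosphate to ubiquinone, had a log2 fold change of −0.24 (limma adjusted p = 0.0671 with the block). Regulators of mitochondrial gene expression had 11 of 17 negative with GABPB1 at −0.13 and a median of −0.026, which turned to 0.012 after cyclic loess and 0.026 without mock replicate 4. Other enzymes of the tricarboxylic acid cycle had 9 of 12 negative with SUCLG2 at −0.083 and a median of −0.038, which turned to 0.025 after cyclic loess and 0.036 without mock replicate 4. The 11 epithelial markers were also all negative, with a median of −0.038, which was −0.031 after cyclic loess and −0.051 without mock replicate 4. COXFA4, long named NDUFA4 and found with complex IV, falls outside the symbol rule and averaged 12.5 ± 0.13 against 12.5 ± 0.19 in mock (SD, n = 4 each), with a difference of −0.026 on the log2 scale.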

How the data were processed

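The authors made the deposited log2 values with RMA in the affy package, per the submitters' processing notes (versions are not given in the sources used here), and they were used as deposited. The table holds 1 value per probe set and array and no comparisons of the authors, and 0 of its columns belonged to no sample. An array has no read depth, and precision is limited by how many arrays there are. Of 54675 probe sets, 41091 had a single symbol, 1801 several, 11721 none and 62 were controls. Symbols were updated through Entrez identifiers, and the probe set with the highest mean represented each of 19752 genes.

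Groups were compared with limma 3.58.1 (lmFit, eBayes, two-sided) in R 4.3.3, with Benjamini-Hochberg adjustment across the genes and a threshold of 0.05. Tables and exact permutation tests (70 regroupings) used Python 3.11.15, numpy 2.4.6, pandas 2.3.3 and scipy 1.17.1, and plots used matplotlib 3.10.9. The study names no block, so the fit without one was the main one. Deviations of arrays with the same replicate number correlated at 0.11, 0.17, 0.58 and 0.81 for replicates 1 to 4 over genes, all above the limit of 0.1, but replicate 1 had 0.086 over probe sets and 0.067 after cyclic loess. The pairing rests on these values alone, since the labels do not say what a number stands for.

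Members, lists and tests were chosen with earlier results of these data known. Named were, per complex, the 3 members of lowest p and the widest range, members called or not overlapping, a set of main subunits, and in other lists the gene of lowest p. Subunits named outside this rule (NDUFA8, NDUFA12, NDUFA6, NDUFA5, NDUFB7, UQCRB and ATP5MF) were picked after their values were seen, as were the isoforms of other tissues. Promoters and microRNAs came from RefSeq tables. Alternatives were the block, leaving out arrays, cyclic loess, array weights, other probe sets and filters on level (above the median of all probe sets, 7.20) and on an interquartile range above 0.25. In data simulated for the comparison without a block over 19752 genes, 200 of them changed, 99% of log2 changes of 1 and 87% of 0.5 were found, with 5.58% of calls false. The simulated noise was independent between genes and arrays, without the shared step of replicate 4. The changed genes were drawn from all genes, with a median standard error of 0.078 against 0.129 for the members. These shares therefore need not hold for the members.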

Additional observations from a re-analysis of the deposited data

Results flagged for a closer look

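In 15 of 64 sets of 4 arrays examined (each named subunit and each complex's median, in each group), the highest array was separated from the other 3 by most of the group's range, which chance does in about 1 in 20 sets, and the sets are not independent of each other. In each of the 15 that array was replicate 4. In the miR-143 group these were ATP5MC1 at 11.1, ATP5MC3 at 13.6, COX5A at 13.4, COX5B at 12.2, COX6A1 at 13.4, COX7C at 13.6, SDHA at 11.4 and UQCRQ at 12.9 on the log2 scale. In mock they were ATP5F1A at 14.4, ATP5MC3 at 13.8, COX7A2L at 12.3 and CYC1 at 11.9. Among the medians of the deviations from each gene's mean, complex II at 0.311, complex IV at 0.176 and complex V at 0.223 stood out in the miR-143 group. The cause was not tested.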

How the results depend on the processing

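In each of the alternatives run, 0 subunits were called. Over all genes the counts called lower and higher, 0 and 0 without a block, were 123 and 33 with the replicate block, 30 and 13 without replicate 4 of both groups, 31 and 22 after cyclic loess and 36 and 20 with array weights. With the block and replicate 1, 2, 3 or 4 left out they were 57, 68, 33 and 42 lower and 16, 11, 9 and 16 higher. After cyclic loess the median log2 fold change turned to 0.0017 in complex I, 0.0080 in complex II, 0.014 in complex IV and 0.025 in complex V. With one array left out and no block, the medians ranged from −0.17 to 0.023 in complex I, −0.14 to 0.052 in complex II, −0.18 to 0.036 in complex III, −0.15 to 0.033 in complex IV and −0.15 to 0.036 in complex V, with the highest value in each without mock replicate 4. Complex II was also positive without miR-143 replicate 3, at 0.011. With the block and one pair left out, the median of complex III ranged from −0.12 to 0.017, the latter without replicate 3, and those of the other complexes stayed negative. Single subunits, none of them called, changed sign in 50 of 78 cases without mock replicate 4, 37 after cyclic loess and 27 with the block and without replicate 3. Of 34 subunits with an interquartile range above 0.25, 31 were negative. The causes were not tested. The number of arrays and the spread between replicates limit the precision.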
